A study of Mus musculus with 64 samples.

Results

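Livers labelled KO from mice on a high-sucrose diet (HSD) were compared with livers labelled KO from mice on chow. The 8 libraries, 4 for each diet, were found by their tissue, genotype and diet labels among the 64 libraries of the series. All were from male C57BL/6 mice. Per the labels, the KO mice were Pklr-/- mutants and the CTRL mice were wild type. The mutant allele is not described further, and both diet groups compared here bear the KO label. The HSD mice were moved from chow to HSD at 8 weeks of age and kept on it for 8 weeks, the chow mice stayed on chow, and livers were taken at 16 weeks. The 8 CTRL livers, 4 on HSD and 4 on chow, entered the same fit, so they share in its estimate of the spread and affect the labelled-KO p-values. They also supply the genes of an index below and set the diet response beside that of another genotype. The libraries of a group were taken as separate mice, because the labels give 4 mice per diet and genotype.

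Sucrose is split in the gut into glucose and fructose, and the liver takes up most of the fructose. Fructose carbon enters glycolysis below its main control point, and 2 transcription factors, ChREBP (encoded by Mlxipl), which responds to sugar phosphates, and SREBP-1c (encoded by Srebf1), which responds to insulin, raise the genes of fatty acid synthesis. Pklr encodes the pyruvate kinase of liver and red blood cells, which makes pyruvate in the last step of glycolysis and is itself a ChREBP target. The question addressed here is how sucrose feeding altered the liver transcriptome of the mice labelled KO.

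The labelled-KO libraries held 6714622 to 7940378 estimated counts. Levels are given as CPM, counts relative to library size scaled by TMM normalization factors, log2 fold changes are HSD over chow ± standard error with n = 4 per group, and p-values come from edgeR's quasi-likelihood test, adjusted by Benjamini-Hochberg over the 11259 genes tested. On the TPM scale the median gene was 0.11 higher in log2 on HSD, against 0.0039 on the scale used here, so TPM is used here for levels between genes, for marker sums and for Pklr and Pkm, and the diet comparisons of other genes rest on CPM. The hepatocyte markers summed to 88840 to 97940 TPM in HSD livers and 66740 to 83640 TPM in chow livers, with no marker at 0. On the CPM scale the same 10 markers had 3 higher and 7 lower means on HSD, a median log2 fold change of -0.05 and 0 at an unadjusted p under 0.05. The acinar cell markers of pancreas summed to at most 0.726 TPM in HSD livers and 0.389 TPM in chow livers. In bulk tissue, fewer cells of a type and less RNA per cell cannot be told apart.

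One library stood apart from its group. An index was formed from the 279 genes called higher and the 247 called lower on HSD in CTRL liver, whose libraries are separate from these 8, as the mean log2(CPM + 1) of those called higher minus that of those called lower. HSD replicates 2 to 4 scored 0.42 to 0.84, HSD replicate 1 scored -0.06, and the 4 chow libraries scored -0.37 to -0.01. HSD replicate 1 therefore lay within the chow range on the genes called between the diet groups of the other genotype. Those calls include 4 higher and 6 lower genes of the clock list and 3 lower acute phase genes. The same library had 21.3 TPM summed over 10 neutrophil markers, against 1.78 to 3.44 TPM in the other HSD libraries and 1.03 to 3.94 TPM in chow libraries, and 23.1 CPM of Lcn2, a secreted iron-binding protein of inflamed liver and neutrophils, against 1.61 to 3.46 CPM in the other HSD libraries and 0.846 to 2.23 CPM in chow libraries. Whether these signals have a part in its position was not tested. Results are therefore given with and without HSD replicate 1. Its values chose it, and the index holds some of the genes reported below, so calls made without it are a description. A second axis set apart chow replicates 1 and 2, at 35.6 and 34.8 on the second principal component, from the other libraries of both diets, at -21.0 to -3.17.

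**Figure D1:**
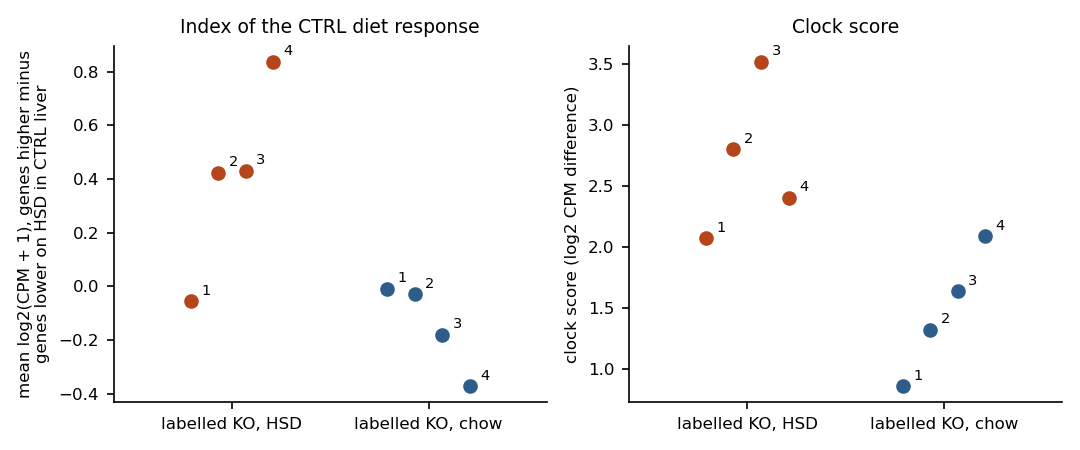
Each point is 1 labelled-KO liver library, HSD at left and chow at right, with its replicate number; the left panel plots the index of the CTRL diet response (log2 units) and the right panel the clock score (mean log2 CPM of 6 clock-repressor and output genes minus that of 3 activator genes). HSD replicate 1 lies at -0.06 on the index, within the chow libraries, while clock scores run from 2.08 to 3.52 on HSD and from 0.86 to 2.09 on chow.

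Pklr itself was present in every library labelled KO. Its transcript (GRCm38 chromosome 3, 89136142 to 89146784) was at 314, 416, 459 and 432 TPM in HSD livers and at 246, 268, 187 and 147 TPM in chow livers. All HSD libraries lay above all chow libraries. Means were 405 ± 63.4 TPM in HSD livers and 212 ± 55.2 TPM in chow livers (SD, n = 4 each), a difference of 0.96 in mean log2(TPM + 1) with an exact two-sided permutation p of 0.0286, the smallest that 70 arrangements allow. On the CPM scale the difference was 0.85. Without chow replicate 4 that p was 0.0571. By edgeR over all genes, Pklr did not pass, with a log2 fold change of 0.80 ± 0.26 and an adjusted p of 0.287. CTRL livers had lower Pklr means than labelled-KO livers on both diets. They were at 456 ± 81.2 CPM on HSD and 249 ± 83.8 CPM on chow (SD, n = 4 each). The labelled-KO livers were at 908 ± 156 CPM on HSD and 521.5 ± 172 CPM on chow. The CTRL log2 fold change was 0.88 ± 0.26, and the level difference between genotypes was not tested here. A gene-level value does not show whether the transcript is intact, and the label is used as deposited. Pkm (chromosome 9, 59656368 to 59679375), which encodes the muscle-type isoenzyme found in many other cells, was at 10.6, 6.08, 6.87 and 4.72 TPM in HSD livers and 2.18, 4.38, 5.79 and 6.63 TPM in chow livers. The Pkm groups overlapped, and the highest value came from HSD replicate 1.

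Across all genes tested, 1 passed the adjusted threshold of 0.05 (0.00888%). It was Gabbr2 (chromosome 4, 46662305 to 46991873), a subunit of the GABA-B receptor, which was at 37.5, 41.6, 39.1 and 46.2 CPM in HSD livers and at 21.99, 24.5, 17.9 and 21.4 CPM in chow livers. The groups did not overlap, and HSD replicate 1 sat with the other HSD livers. Gabbr2 rose by 0.94 ± 0.14 on the log2 scale (adjusted p = 0.0478); in CTRL liver the fold change was 1.03 (adjusted p = 0.00178). The call was lost when any single labelled-KO library other than HSD replicate 1 or chow replicate 2 was left out, with adjusted p from 0.126 to 0.269. The fold change then lay between 0.86 and 1.01 over all 8 leave-outs. The call was also lost without each of 5 CTRL libraries in turn, with adjusted p from 0.0501 to 0.0857. With only the 8 labelled-KO libraries in the fit its adjusted p was 0.119. At an unadjusted p under 0.05 there were 567 genes higher on HSD (5.04%) and 561 lower (4.98%), and all 4 HSD libraries lay above all 4 chow libraries for 280 genes (2.49%) and below them for 341 (3.03%). The DESeq2 Wald test called 55 genes higher and 82 lower.

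Without HSD replicate 1, 63 of 11398 genes were called higher (0.553%) and 91 lower (0.798%), with Gabbr2 among those higher at an adjusted p of 0.00276. HSD replicate 1 lay at or below the highest chow library in 44 of those 63 genes and at or above the lowest chow library in 50 of those 91. It was nearer to the chow mean than to the mean of the other HSD libraries in 137 of the 154, which is a description, since those libraries chose the genes. Of the 154 genes, 143 had the same sign in CTRL liver as in the labelled-KO fit without HSD replicate 1. In the fit with that library, 62.1% of all genes tested, not chosen by p, had the same sign in both genotypes. These shares come from unlike fits and unlike sets of genes. Without HSD replicate 1, 6.24% of genes were higher and 7.11% lower at an unadjusted p under 0.05. List counts without this library stand beside those percentages.

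Genes of fatty acid synthesis had higher means on HSD. All 20 members of the list were tested; 18 had a higher mean on HSD, 14 were higher at an unadjusted p under 0.05 and 0 lower, and none passed over all genes. The median log2 fold change was 0.87, against 0.0039 over all genes tested, and 5 members had groups that did not overlap. Over all genes 5.04% were higher and 4.98% lower at that unadjusted level, and 2.49% had every HSD library above every chow library. The count of 14 was 10 without HSD replicate 4, chow replicate 3 or chow replicate 4. The median was 0.73 without HSD replicate 4. Without HSD replicate 1 the median was 1.02 and 6 members passed (G6pdx, Fads2, Fads1, Elovl6, Elovl5 and Acaca). All 6 were also called in CTRL liver and so are in the index that set this library apart. In CTRL liver 13 members were called higher, against 2.48% of all genes, with a median of 1.22.

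G6pdx (chromosome X, 74409483 to 74429194) encodes glucose-6-phosphate dehydrogenase, which supplies NADPH for lipid synthesis. It was at 8.33, 69.8, 62.4 and 95.2 CPM in HSD livers and at 7.33, 9.05, 5.46 and 4.18 CPM in chow livers. HSD replicate 1 lay within the chow range, while the other HSD livers were several-fold higher. The log2 fold change was 3.18 ± 0.56 (adjusted p = 0.122), and without HSD replicate 1 it was 3.54 (adjusted p = 5.78e-05). Acaca, the cytosolic acetyl-CoA carboxylase that commits carbon to fatty acids, was at 175, 379, 363 and 580 CPM in HSD livers and 196, 187, 122 and 87.1 CPM in chow livers. Its HSD replicate 1 again lay among the chow livers, and its fold change was 1.34 ± 0.35 (adjusted p = 0.169).

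Acacb, the mitochondrial acetyl-CoA carboxylase whose product restrains fatty acid oxidation, behaved differently in that library. It was at 187, 245, 178 and 170 CPM in HSD livers and 78.6, 123, 99.3 and 51.5 CPM in chow livers. All HSD livers, replicate 1 included, lay above all chow livers (log2 fold change 1.15 ± 0.29, adjusted p = 0.156). Fasn, the fatty acid synthase, was at 410, 619, 485 and 820 CPM in HSD livers and 223, 494, 200 and 132 CPM in chow livers, where replicate 2 overlapped the HSD group (adjusted p = 0.303). Acly, which makes cytosolic acetyl-CoA from citrate, had a fold change of 0.74 ± 0.34 and Me1, the malic enzyme, one of 0.86 ± 0.33; neither passed. Pnpla3, a lipid droplet protein and SREBP-1c target, had a fold change of 2.01 ± 0.65 on levels of at most 7.32 CPM on HSD and 2.23 CPM on chow. Of the regulators, Srebf1 had a fold change of 0.49 ± 0.34 and Mlxipl one of -0.19 ± 0.15 (unadjusted p = 0.168 and 0.21).

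**Figure D2:**
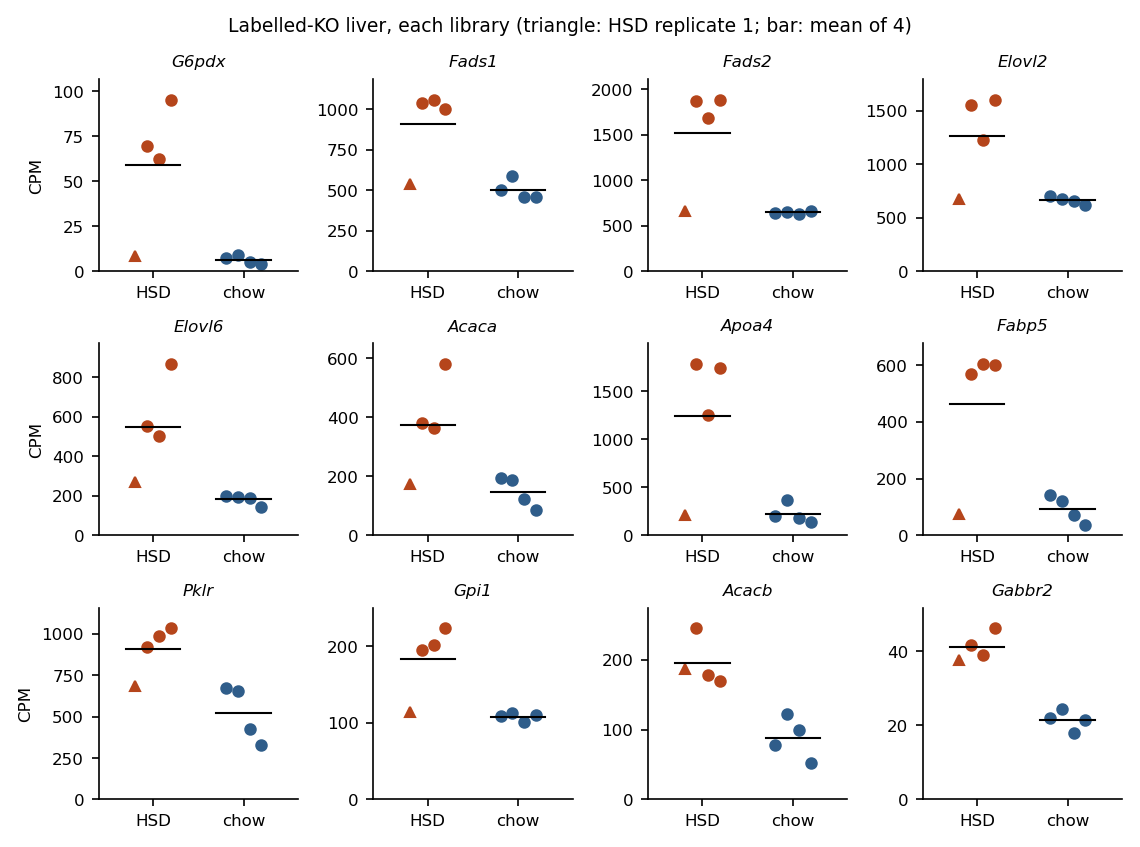
CPM of 12 genes in each labelled-KO library, HSD at left and chow at right in each panel, with a bar at the mean of 4 and a triangle for HSD replicate 1; every vertical axis starts at 0. The triangle lies at the chow level for G6pdx, Fads2, Elovl2, Apoa4 and Fabp5, and with the other HSD libraries for Acacb and Gabbr2.

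Desaturases and elongases, taken as a family by symbol after values were seen, mostly had higher means on HSD. Of 11 tested, 8 were higher and 1 lower at an unadjusted p under 0.05, against 5.04% and 4.98% of all genes. The family median was 0.93. Fads2 (chromosome 19, 10062765 to 10101746), the delta-6 desaturase that starts the synthesis of long polyunsaturated fatty acids, was at 668, 1869, 1685 and 1883 CPM in HSD livers and 643, 654, 636 and 667 CPM in chow livers. The chow livers lay within a narrow range, HSD replicate 1 exceeded the highest of them by less than 1 CPM, and the other HSD livers were far above it. The log2 fold change was 1.23 ± 0.24 (adjusted p = 0.122), and 1.48 without HSD replicate 1 (adjusted p = 5.78e-05).

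Fads1, the delta-5 desaturase of the same pathway, was at 538, 1038, 1056 and 1003 CPM in HSD livers and 499, 589, 456 and 457 CPM in chow livers. Elovl2, which elongates polyunsaturated chains, was at 676, 1549, 1229 and 1598 CPM in HSD livers and 701, 672, 660 and 621 CPM in chow livers. Both had HSD replicate 1 inside the chow range and the other HSD livers outside it, with fold changes of 0.86 ± 0.18 and 0.93 ± 0.20 (both adjusted p = 0.126). Elovl6, which elongates palmitate, was at 268, 555, 501 and 866 CPM in HSD livers and 201, 195, 190 and 144 CPM in chow livers, with no overlap (1.58 ± 0.34, adjusted p = 0.126). Fads3 and Elovl5 also had groups that did not overlap, at 1.95 ± 0.41 and 0.87 ± 0.21. Scd1, the main stearoyl-CoA desaturase of liver, was at 16110, 38800, 34450 and 43310 CPM in HSD livers and 21340, 22310, 11490 and 6226 CPM in chow livers. Its chow values spread more than 3-fold, and its adjusted p was 0.396.

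Elovl3, the elongase of saturated very long chains, had a lower mean on HSD. It was at 240, 150, 147 and 221 CPM in HSD livers and 530, 427, 344 and 366 CPM in chow livers, so every HSD liver lay below every chow liver. The fold change was -1.14 ± 0.27 (adjusted p = 0.126) and -1.27 without HSD replicate 1 (adjusted p = 0.0473). In CTRL liver it was 1.06 (adjusted p = 0.0351), in the opposite direction.

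Among genes that carry lipid out of or into the hepatocyte, a few stood out against lists with medians near 0. Apoa4, an apolipoprotein of triglyceride-rich particles, was at 209, 1782, 1256 and 1740 CPM in HSD livers and 203, 370, 182 and 138 CPM in chow livers. Fabp5, a fatty acid binding protein, was at 74.7, 570, 604 and 600 CPM in HSD livers and 144, 120, 72.6 and 36.4 CPM in chow livers. In both, HSD replicate 1 lay in the chow range and the other HSD livers clearly above it. Their fold changes were 2.48 ± 0.52 (adjusted p = 0.126) and 2.31 ± 0.67 (adjusted p = 0.23), and without HSD replicate 1 both passed (adjusted p = 0.000484 and 0.04). Apoc2, the cofactor of lipoprotein lipase, was at 152, 322, 243 and 302 CPM in HSD livers and 144, 192, 143 and 151 CPM in chow livers, and it too passed without HSD replicate 1 (adjusted p = 0.0141).

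Angptl8, a secreted regulator of lipoprotein lipase, had a lower mean on HSD, with a fold change of -1.32 ± 0.46 (adjusted p = 0.319). Across the 23 lipoprotein genes tested, 2 were higher and 3 lower at an unadjusted p under 0.05, and among 17 genes of fatty acid uptake and binding 3 were higher and 2 lower. Over all genes 5.04% were higher and 4.98% lower at that level. Without HSD replicate 1 the lipoprotein list gave 3 higher and 6 lower, and the uptake list 4 higher and 3 lower. Cholesterol synthesis and LDL uptake gave 2 higher and 1 lower of 25 tested, and 4 higher and 1 lower without that library. Triglyceride synthesis and lipid droplet genes gave 1 higher and 0 lower of 22, without that library 2 higher and 1 lower, and without chow replicate 4 a count of 5 higher. Fatty acid oxidation and ketogenesis gave 0 higher and 1 lower of 24, with Cpt1a, the carnitine transferase that admits fatty acids to mitochondria, at 0.37 ± 0.18. That list gave 1 higher and 5 lower without HSD replicate 1, and 0 higher and 4 lower without chow replicate 1, where 5.12% of all genes were higher and 4.99% lower. Without chow replicate 1 the lipoprotein list gave 3 higher and 5 lower, and the uptake list 5 higher and 2 lower.

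Glycolysis genes had small differences that were mostly positive. Of 25 tested, 5 were higher and 0 lower at an unadjusted p under 0.05, 3 had groups that did not overlap, and the median was 0.22. Over all genes 5.04% were higher and 4.98% lower at that level, and 2.49% had every HSD library above every chow library. Without HSD replicate 1 the glycolysis list gave 4 higher and 0 lower. Gpi1, glucose-6-phosphate isomerase, was at 115, 195, 202 and 224 CPM in HSD livers and 110, 113, 101 and 110 CPM in chow livers. HSD replicate 1 was just above the chow livers and the other HSD livers well above them (0.76 ± 0.15, adjusted p = 0.122; without HSD replicate 1, 0.93 and adjusted p = 0.000178). Pfkfb2, which makes the activator of phosphofructokinase, had a fold change of 0.77 ± 0.20 with no overlap (adjusted p = 0.151). The other 2 below that unadjusted level besides Pklr were Pfkfb1 at 0.39 ± 0.15 and Aldoa at 0.34 ± 0.15. The 9 fructose genes gave 1 higher and 3 lower, among them Sord, which makes fructose from sorbitol, whose groups did not overlap at -0.36 ± 0.13 (adjusted p = 0.327). The count of lower fructose genes was 1 without HSD replicate 2, HSD replicate 4 or chow replicate 2.

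Around pyruvate and gluconeogenesis, the genes nearest the threshold were Gk, glycerol kinase, at 0.46 ± 0.11 and Ppargc1a, a coactivator of gluconeogenic and mitochondrial genes, at 0.81 ± 0.20 (adjusted p = 0.126 for both). Both passed without HSD replicate 1 (adjusted p = 0.00661 and 0.00862), as did Pdha1, a subunit of pyruvate dehydrogenase, at 0.50 (adjusted p = 0.0482). The list of pyruvate oxidation and the TCA cycle gave 4 higher and 0 lower of 28, including Dlat at 0.62 ± 0.21 and Cs, citrate synthase, at 0.32 ± 0.15. Without HSD replicate 1 it gave 4 higher and 3 lower, and the count higher was 1 to 2 without HSD replicate 3, HSD replicate 4, chow replicate 3 or chow replicate 4. Nuclear genes of oxidative phosphorylation gave 0 higher and 1 lower of 72, and the 13 mitochondrially encoded genes gave 0 in either direction. Of 16 ChREBP-linked genes, 7 were higher and 1 lower, with a median of 0.48; several are also members of the lists above. Among them, Fgf21, a hormone that hepatocytes secrete on sugar feeding, had a fold change of 1.63 ± 0.53, and Txnip, an inhibitor of glucose uptake, one of 0.64 ± 0.23 (adjusted p = 0.272 and 0.327). Without HSD replicate 1 the ChREBP-linked list gave 5 higher and 1 lower, with a median of 0.44. Over all genes and with all libraries, 5.04% were higher and 4.98% lower at an unadjusted p under 0.05.

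**Figure D3:**
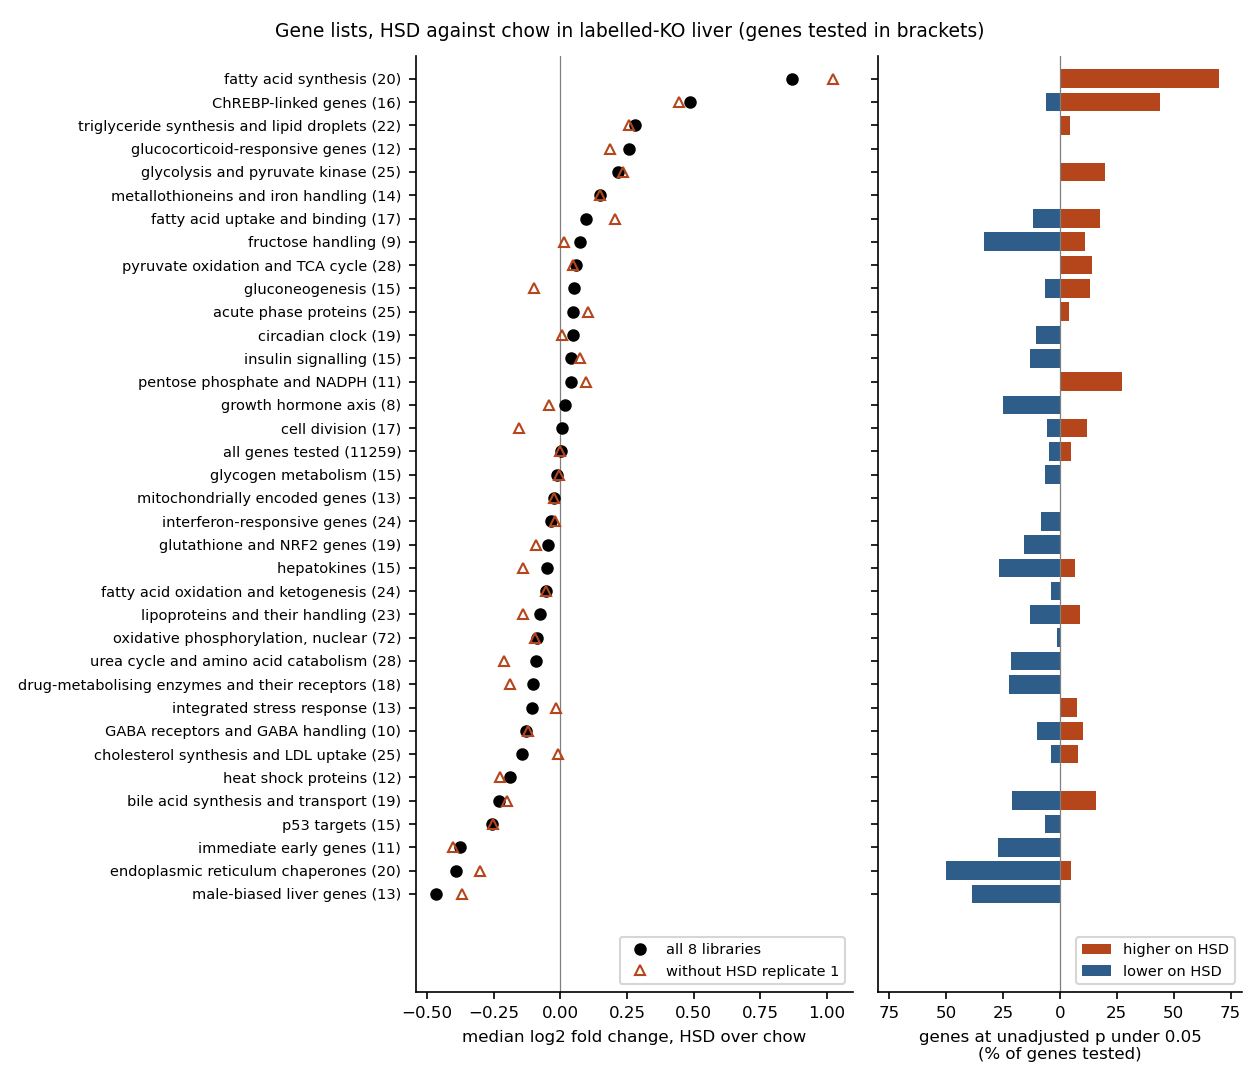
For each pathway list with at least 8 genes tested, and for all genes, the left panel plots the median log2 fold change of HSD over chow (circles, all 8 libraries; triangles, without HSD replicate 1) and the right panel the percent of genes at an unadjusted p under 0.05, higher to the right and lower to the left. Fatty acid synthesis is at the top with a median of 0.87, and endoplasmic reticulum chaperones (-0.39) and male-biased genes (-0.47) are at the bottom.

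Endoplasmic reticulum chaperones, which fold secreted proteins and are raised together by the unfolded protein response, had lower means on HSD. Of 20 tested, 10 were lower and 1, Atf6, higher at an unadjusted p under 0.05, 9 had groups that did not overlap with HSD below chow, and none passed over all genes. The median log2 fold change was -0.39; it was -0.30 without HSD replicate 1 and -0.23 without that library and chow replicates 1 and 2, and it stayed below 0 in all 26 alternatives. The background shares were 4.98% lower and 3.03% without overlap. The count of lower genes at that level was 6 without HSD replicate 1 and 6 without chow replicate 1. With a score of circadian clock genes as a covariate it was 3, with 0 higher and a median of -0.26, where 3.24% of all genes were higher and 3.14% lower.

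The promoters of 4 of these genes are shown because they carry the endoplasmic reticulum stress response element, the known binding site of the factors of this response. Each is 250 bases before to 50 after a RefSeq gene start on GRCm38.p6, in the gene's own direction. Capitals mark every match to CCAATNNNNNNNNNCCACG on either strand. The windows are chr19:6046326-6046625 for Syvn1, chr15:88819396-88819695 for Creld2, chr2:34771840-34772139 for Hspa5 and chr12:17266339-17266638 for Pdia6, all on the plus strand.
Syvn1: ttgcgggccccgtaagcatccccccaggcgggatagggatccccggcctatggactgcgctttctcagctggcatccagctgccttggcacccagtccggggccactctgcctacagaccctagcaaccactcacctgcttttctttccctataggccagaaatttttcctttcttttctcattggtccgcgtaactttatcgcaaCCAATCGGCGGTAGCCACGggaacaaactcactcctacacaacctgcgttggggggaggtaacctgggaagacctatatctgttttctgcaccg
Creld2: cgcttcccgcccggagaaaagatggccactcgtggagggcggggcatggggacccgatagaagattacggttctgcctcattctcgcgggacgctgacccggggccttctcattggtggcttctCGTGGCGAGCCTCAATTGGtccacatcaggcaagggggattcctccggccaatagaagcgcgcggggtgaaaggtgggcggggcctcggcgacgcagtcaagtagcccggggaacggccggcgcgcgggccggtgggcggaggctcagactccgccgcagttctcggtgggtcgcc
Hspa5: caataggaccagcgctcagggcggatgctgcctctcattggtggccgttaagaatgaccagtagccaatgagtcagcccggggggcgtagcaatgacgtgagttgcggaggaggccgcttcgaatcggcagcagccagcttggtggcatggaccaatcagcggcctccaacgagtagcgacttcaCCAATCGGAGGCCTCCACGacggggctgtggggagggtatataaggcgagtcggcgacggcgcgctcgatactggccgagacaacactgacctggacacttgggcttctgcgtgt
Pdia6: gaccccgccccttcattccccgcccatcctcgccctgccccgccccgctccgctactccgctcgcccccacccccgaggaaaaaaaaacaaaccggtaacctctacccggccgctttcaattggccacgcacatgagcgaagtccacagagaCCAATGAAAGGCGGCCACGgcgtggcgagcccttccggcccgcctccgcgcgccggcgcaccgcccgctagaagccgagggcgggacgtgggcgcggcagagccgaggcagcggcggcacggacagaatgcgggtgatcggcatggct

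Of 27025 genes with such a window, 37 held the element (0.137%), and of the 17 listed chaperone genes with a window 8 did (47.1%). Of the 10 genes lower at an unadjusted p under 0.05, 6 held it (Hspa5, Hsp90b1, Calr, Pdia6, Creld2 and Syvn1). The match describes the sequence, not binding, and the other 2 with it, Canx and Dnajc3, had log2 fold changes of -0.09 and -0.08.

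Syvn1 (chromosome 19, 6046576 to 6053712), the ubiquitin ligase that marks misfolded proteins for breakdown, was at 39.6, 55.2, 42.96 and 25.6 CPM in HSD livers and 73.3, 77.3, 77.4 and 70.9 CPM in chow livers. Every HSD liver, replicate 1 included, lay below every chow liver. Its fold change was -0.87 ± 0.20 (adjusted p = 0.126). Hspa5 (chromosome 2, 34771970 to 34777547), the chaperone BiP, was at 645, 917, 792 and 740 CPM in HSD livers and 1329, 941, 1072 and 886 CPM in chow livers. Its groups overlapped by HSD replicate 2 and chow replicate 4, and the fold change was -0.45 ± 0.15 (adjusted p = 0.29).

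Creld2, a secreted disulfide isomerase, was at 27.9, 40.2, 46.04 and 32.5 CPM in HSD livers and 80.9, 67.4, 51.7 and 50.6 CPM in chow livers. The disulfide isomerase Pdia6 was at 243, 277, 285 and 260 CPM in HSD livers and 359, 369, 324 and 374 CPM in chow livers. Neither overlapped, and here HSD replicate 1 was the lowest of all libraries. Fold changes were -0.77 ± 0.21 and -0.42 ± 0.14 (adjusted p = 0.188 and 0.294). The calcium-binding chaperone Calr, the cochaperone Sdf2l1 and the BiP cofactor Dnajb11 also had groups that did not overlap, at -0.48 ± 0.17, -0.82 ± 0.29 and -0.44 ± 0.17. A further family of 24 genes of the translocon, signal peptidase and oligosaccharyltransferase, taken by symbol after values were seen, gave 1 higher and 0 lower, with a median of 0.04.

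**Figure D4:**
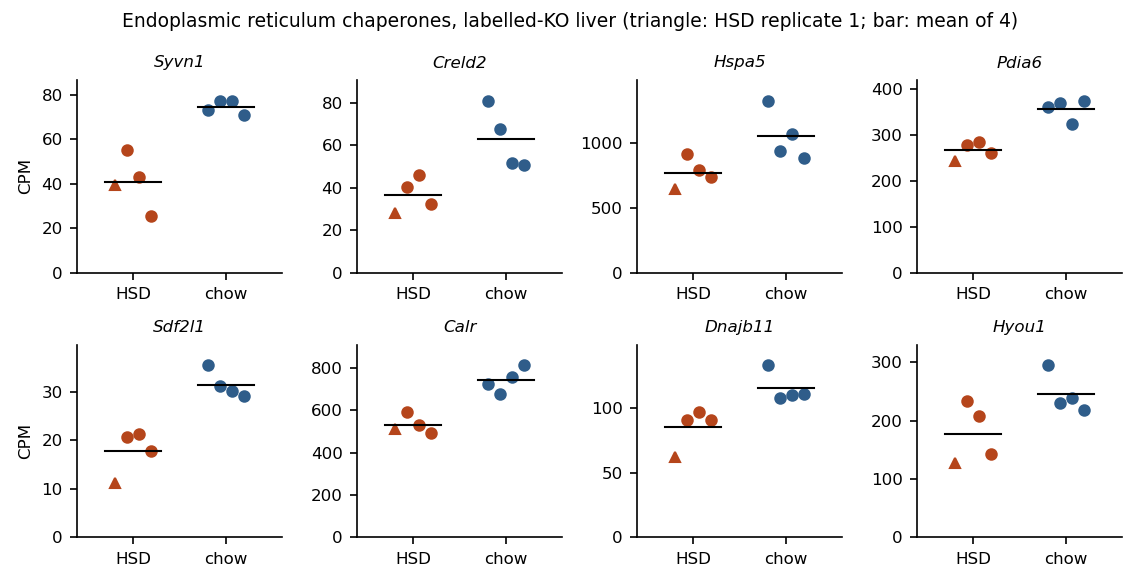
CPM of 8 endoplasmic reticulum chaperone genes in each labelled-KO library, HSD at left and chow at right in each panel, with a bar at the mean of 4 and a triangle for HSD replicate 1; every vertical axis starts at 0. All HSD points lie below all chow points in 6 panels, and the groups overlap for Hspa5 and Hyou1.

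Enzymes that clear drugs, steroids and other foreign compounds had lower means on HSD. Of 36 tested cytochrome P450 genes of families 1 to 3, taken by symbol after values were seen, 0 were higher and 11 lower at an unadjusted p under 0.05, with a median of -0.32; over all genes 5.04% were higher and 4.98% lower at that level. Several Cyp2c genes are near-identical copies, so their estimated counts may be split between them. Cyp1a2, a pericentral enzyme that oxidises caffeine and aromatic amines, was at 344, 196, 188 and 182 CPM in HSD livers and 501, 482, 405 and 482 CPM in chow livers. All HSD livers lay below all chow livers, and replicate 1 was the highest of them (-1.04 ± 0.22, adjusted p = 0.126; without it, -1.31 and adjusted p = 0.00219). Cyp2c50, an epoxygenase of arachidonic acid, had 589, 273, 243 and 340 CPM in HSD livers and 806, 716, 697 and 736 CPM in chow livers (-1.03 ± 0.23, adjusted p = 0.126). Cyp2c54 and Cyp2c23 had fold changes of -1.04 ± 0.24 and -0.91 ± 0.20, with no overlap in either.

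Carboxylesterases, which hydrolyse esters of drugs and lipids, gave 0 higher and 8 lower of 14 by the same symbol rule, with a median of -0.65; the count lower was 4 without HSD replicate 2 or without HSD replicate 4. Ces2a was at 204, 125, 133 and 146 CPM in HSD livers and 258, 243, 254 and 266 CPM in chow livers, without overlap (-0.75 ± 0.17, adjusted p = 0.126). Ces1g, a lipid-handling member, was at 224, 55.1, 37.6 and 58.6 CPM in HSD livers and 191, 220, 214 and 208 CPM in chow livers. Here HSD replicate 1 was above every chow liver and the other HSD livers far below, so the fold change was -1.15 ± 0.42 with it (adjusted p = 0.347) and -2.04 without it (adjusted p = 5.89e-05). UDP-glucuronosyltransferases gave 1 higher and 6 lower of 17, with a median of -0.31. Over all genes 5.04% were higher and 4.98% lower at an unadjusted p under 0.05. Without HSD replicate 1 the counts higher and lower were 0 and 11 for the P450 genes, 0 and 8 for the carboxylesterases and 1 and 5 for the glucuronosyltransferases. Nr1i3, the nuclear receptor CAR that drives many of these genes, was at 67.1, 34.2, 19.5 and 35.3 CPM in HSD livers and 51.9, 58.4, 82.8 and 89.5 CPM in chow livers. Its groups overlapped by HSD replicate 1 (-0.86 ± 0.32, adjusted p = 0.342), and without that library it passed (adjusted p = 0.0406). The list of drug-metabolising enzymes and receptors, which shares members with these families, gave 0 higher and 4 lower of 18, among them the aldehyde oxidase Aox1 at -0.67 ± 0.23.

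Bile acid genes split in both directions at an unadjusted p under 0.05, with 3 higher and 4 lower of 19, against 5.04% and 4.98% of all genes. Without HSD replicate 1 there were 3 higher and 7 lower, against 6.24% and 7.11% of all genes. Abcg5 and Abcg8, whose products pair to export sterols into bile, were higher together. Abcg5 was at 43.7, 92.7, 79.5 and 105 CPM in HSD livers and 37.6, 33.2, 42.4 and 44.7 CPM in chow livers, overlapping only at HSD replicate 1 (1.02 ± 0.26, adjusted p = 0.165), and Abcg8 had a fold change of 0.69 ± 0.21. Both passed without HSD replicate 1 (adjusted p = 0.013 and 0.0406). Slc22a7, an organic anion transporter, was at 24.7, 9.40, 5.10 and 10.1 CPM in HSD livers and 48.5, 41.1, 44.4 and 41.5 CPM in chow livers. All HSD livers were below all chow livers (-1.83 ± 0.43, adjusted p = 0.126). Cyp7b1, the oxysterol hydroxylase of the alternative bile acid pathway, was at 80.2, 139, 80.3 and 56.9 CPM in HSD livers and 293, 157, 232 and 263 CPM in chow livers (-1.41 ± 0.39, adjusted p = 0.204), again with no overlap. Baat, which conjugates bile acids, had a fold change of -0.42 ± 0.13. Cyp7a1, the rate-limiting enzyme of the classic pathway, was at 190, 8.61, 36.9 and 40.4 CPM in HSD livers and 91.5, 110, 92.5 and 74.7 CPM in chow livers; HSD replicate 1 was the highest and the other HSD livers the lowest.

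Genes expressed more in male than in female mouse liver had lower means, with 0 higher and 5 lower of 13 and a median of -0.47, against 4.98% of all genes lower. The median was -0.37 without HSD replicate 1, again with 0 higher and 5 lower, -0.28 without chow replicate 1, and -0.18 without HSD replicate 1 and chow replicates 1 and 2. Selenbp2, a selenium-binding protein, was at 145, 145, 79.1 and 24.2 CPM in HSD livers and 1175, 764, 634 and 669 CPM in chow livers, without overlap (-3.05 ± 0.72, adjusted p = 0.127). Cyp2d9, a male-specific steroid hydroxylase, was at -0.52 ± 0.20, and Hsd3b5, a steroid dehydrogenase, at -0.79 ± 0.30. Of the female-biased list only 3 of 16 were expressed enough to be tested. One of them, Cyp17a1, a steroid hydroxylase, was at 28.2, 97.2, 86.6 and 205 CPM in HSD livers and 10.4, 17.8, 18.7 and 15.2 CPM in chow livers. All HSD livers lay above all chow livers (2.74 ± 0.49, adjusted p = 0.122; in CTRL 2.64, adjusted p = 0.0111), while Cyp2c69 had a fold change of -0.99 and Acot3 one of 0.48. In the growth hormone axis, which sets this sex bias, 0 of 8 genes were higher and 2 lower at the unadjusted level, Stat5b at -0.30 and the receptor gene Ghr at -0.31. Its means were 4 higher and 4 lower, with a median of 0.02. The count lower was 3 without HSD replicate 1 and 1 without HSD replicate 2, 3 or 4 or chow replicate 1 or 2. With the clock score as a covariate it was 0.

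Amino acid catabolism and the urea cycle gave 0 higher and 6 lower of 28 at an unadjusted p under 0.05, with a median of -0.09. Over all genes 5.04% were higher and 4.98% lower at that level. The count lower was 9 without HSD replicate 1, and 4 without HSD replicate 2 or HSD replicate 3. With the clock score as a covariate it was also 4, where 3.14% of all genes were lower. Cth, which makes cysteine, was at 468, 191, 171 and 178 CPM in HSD livers and 353, 426, 508 and 486 CPM in chow livers. HSD replicate 1 lay in the chow range, and the fold change was -0.82 ± 0.29 with it (adjusted p = 0.334) and -1.30 without it (adjusted p = 0.00276). Bhmt, the betaine-homocysteine methyltransferase, was at 3342, 1084, 884 and 1513 CPM in HSD livers and 4432, 5645, 4112 and 2723 CPM in chow livers, with the same library in the chow range (-1.31 ± 0.49, adjusted p = 0.357). Otc, the ornithine transcarbamylase of the urea cycle, was lower without overlap at -0.40 ± 0.12, and Gldc and Agxt, of glycine and glyoxylate breakdown, were at -0.55 ± 0.16 and -0.73 ± 0.23. Abat, the GABA transaminase, had 369, 270, 238 and 297 CPM in HSD livers and 439, 464, 434 and 388 CPM in chow livers. It was lower in every HSD liver (-0.56 ± 0.15, adjusted p = 0.164), and it and Gabbr2 were the only members of the 10 tested GABA genes at an unadjusted p under 0.05.

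Among hormones and growth genes, Enho, which encodes the secreted peptide adropin, was at 1.67, 0.783, 0.269 and 0.133 CPM in HSD livers and 2.82, 2.67, 3.12 and 7.02 CPM in chow livers. The groups did not overlap at these low levels (-2.44 ± 0.64, adjusted p = 0.165), and the gene passed without HSD replicate 1 (adjusted p = 0.0373). Ccnd1, cyclin D1, was at 24.3, 35.8, 33.8 and 44.1 CPM in HSD livers and 17.5, 17.7, 10.9 and 12.99 CPM in chow livers, with no overlap (1.23 ± 0.33, adjusted p = 0.177), while the 17 cell division genes tested gave 2 higher and 1 lower. Gpx1, the selenium-dependent glutathione peroxidase, was at -0.75 ± 0.24 and passed without HSD replicate 1 (adjusted p = 0.017). The immediate early genes Egr1, Ier2 and Jun had fold changes of -1.17 ± 0.43, -0.80 ± 0.35 and -0.64 ± 0.29 and were the 3 of 11 below the unadjusted level. Over all genes 4.98% were lower at that level. The immediate early count was 2 without HSD replicate 1, 0 without chow replicate 4, and 4 without chow replicate 1 or chow replicate 3. Acute phase proteins gave 1 of 25, Il1rn, the interleukin-1 receptor antagonist, at 1.44 ± 0.51 on levels of 2.80 to 6.04 CPM on HSD and 0.987 to 2.21 CPM on chow. Lists with 0 genes at that level in either direction included heat shock proteins (12 tested), glucocorticoid-responsive genes (12) and Kupffer cell markers (12). Cd9, a membrane protein listed with lipid-associated macrophages and also made by other cells, was at 19.9, 40.1, 46.7 and 46.3 CPM in HSD livers and 19.9, 18.5, 19.2 and 17.02 CPM in chow livers, with HSD replicate 1 at the chow level (1.03 ± 0.25, adjusted p = 0.126).

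The 10 genes with the smallest p among those higher on HSD without overlap were Gabbr2, Cyp17a1, Galc, Fads2, Dhrs7, Anxa5, Gpi1, Rdh16, Gcnt2 and Fads3. Rdh16, a retinol dehydrogenase, was at 200, 236, 209 and 278 CPM in HSD livers and 85.7, 102, 160 and 132 CPM in chow livers (0.94 ± 0.19, adjusted p = 0.122). Galc, the lysosomal galactosylceramidase, had a fold change of 1.30 ± 0.25 and the calcium-dependent phospholipid-binding protein Anxa5 one of 0.71 ± 0.14 (both adjusted p = 0.122). Dhrs7 and Gcnt2, a short-chain dehydrogenase and a glycosyltransferase, were at 0.79 ± 0.16 and 0.49 ± 0.10. Those lower included Adh4, Slc22a30, Fermt2, Nudt13, Slc35b1, Cyp1a2, Hsd3b2, Fahd1 and Cyp2c50. Adh4, an alcohol and retinol dehydrogenase, was at 105, 71.0, 70.3 and 89.8 CPM in HSD livers and 183, 155, 132 and 128 CPM in chow livers. Every HSD liver lay below every chow liver, and its adjusted p of 0.0952 was the nearest to the threshold after Gabbr2 (-0.83 ± 0.14). Slc22a30, Fermt2, Nudt13, Slc35b1, Hsd3b2 and Fahd1 had fold changes from -1.19 (Nudt13) to -0.54 (Fermt2).

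The circadian clock, a loop in which Arntl, Npas2 and Clock activate the Per and Cry repressors, gave 0 higher and 2 lower of 19. Over all genes 5.04% were higher and 4.98% lower at an unadjusted p under 0.05. Arntl, the core activator BMAL1, was at 2.92, 2.35, 0.805 and 2.26 CPM in HSD livers and 8.03, 7.57, 5.46 and 4.18 CPM in chow livers. Every HSD liver lay below every chow liver (-1.59 ± 0.46, adjusted p = 0.219). Cry1 was at -0.52 ± 0.22 and also did not overlap, although on the TPM scale its difference was 0.03. Collection times are not in the labels, so diet and time of collection cannot be told apart for these genes. The clock score, which is higher when Per and output genes are high and Arntl low, was 2.08, 2.80, 3.52 and 2.40 in HSD livers and 0.86, 1.33, 1.64 and 2.09 in chow livers, with HSD replicate 1 just under the highest chow liver. With the score as a covariate, 1 gene was called, and 365 genes were higher and 354 lower at an unadjusted p under 0.05, against 567 and 561 without it. Fatty acid synthesis then gave 12 higher and 0 lower of 20, with a median of 0.86.

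Set beside the diet response of CTRL liver, which shares no library with the labelled-KO contrast, the interaction test called 0 genes by edgeR, with a lowest adjusted p of 0.132. Without CTRL chow replicate 1 it called 5, Arntl, Per2 and Per3 among them (adjusted p = 0.00816, 0.0392 and 0.0392). At an unadjusted p under 0.05 the labelled-KO response was higher for 515 genes (4.57%) and lower for 464 (4.12%), and DESeq2 called 70. The gene with the smallest p was Elovl3, at -1.14 ± 0.27 in labelled KO and 1.06 in CTRL (interaction, adjusted p = 0.132). Its difference between genotypes was -2.20 ± 0.38, and -1.06 ± 0.59 once the clock score entered the model. In the clock list the labelled-KO response was higher for 7 of 19 genes and lower for 4 at that level. With the clock score as a covariate both counts were 0, where 2.72% of all genes were higher and 1.67% lower. The score is built from members of this list, namely Per2, Per3, Dbp, Ciart, Tef, Hlf, Arntl, Npas2 and Clock. The covariate therefore removes much of their difference by construction, and no conclusion is drawn from that drop. Arntl was at -1.59 in labelled KO and 1.598 in CTRL (adjusted p = 0.135). Per3, a repressor, was at 0.69 in labelled KO and -2.01 in CTRL (adjusted p = 0.135), and Per2 at 0.44 and -1.34 (adjusted p = 0.136). Clock scores in CTRL liver were -2.69 to -0.01 on HSD and 0.47 to 2.84 on chow, so in CTRL liver the HSD scores lay below the chow scores without overlap.

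In the chaperone list the labelled-KO response was lower than the CTRL response for 6 of 20 genes at that unadjusted level and higher for 0. The count was 14 without CTRL chow replicate 1 and 9 without CTRL HSD replicate 1, and it was 0 in either direction with the clock score as a covariate. With that covariate the differences were -0.736 ± 0.374 for Hspa5, -0.657 ± 0.515 for Creld2 and -0.836 ± 0.551 for Hyou1. Without it they were -0.955 ± 0.213, -1.10 ± 0.302 and -1.06 ± 0.313. With the covariate the standard errors were wider and all of these differences were smaller in size. A part of clock phase in these differences was not tested. Hspa5 was at -0.45 ± 0.15 in labelled KO and 0.50 in CTRL (adjusted p = 0.14), Creld2 at -0.77 and 0.33 (adjusted p = 0.259), and Hyou1, a BiP exchange factor, at -0.46 and 0.59 (adjusted p = 0.317), so none passed. Txnip was at 0.64 in labelled KO and -0.89 in CTRL (adjusted p = 0.135). Acute phase genes had a median of 0.05 in labelled KO and -1.43 in CTRL, and 9 of 25 were below the unadjusted level in the interaction test, all with the labelled-KO response higher. One CTRL chow library stood apart on such genes. Lcn2 was at 1.70, 2.39, 2.12 and 18.9 CPM in CTRL HSD livers and 1632, 1.98, 73.1 and 5.25 CPM in CTRL chow livers, so that chow replicate 1 exceeded every other CTRL library by far. Without CTRL chow replicate 1 the CTRL median was -0.42 and 5 of 25 acute phase genes were below the unadjusted level in the interaction test, where 3.86% of all genes were higher and 4.04% lower. The count was also 5 without labelled-KO HSD replicate 1, whose omission left the labelled-KO median at 0.10, and it ranged from 5 to 17 over the 16 libraries left out in turn. Il1rn was at 1.44 in labelled KO and -1.60 in CTRL (adjusted p = 0.14); it was at 1.80, 1.82, 2.44 and 1.79 CPM in CTRL HSD livers and 14.8, 2.92, 3.64 and 2.88 CPM in CTRL chow livers, where the highest value again came from chow replicate 1. Labelled-KO and CTRL fold changes lay close together for Gabbr2 (0.94 and 1.03), Fads2 (1.23 and 1.17), Cyp1a2 (-1.04 and -1.02) and Cyp17a1 (2.74 and 2.64), whose differences had standard errors of 0.20, 0.33, 0.31 and 0.65. For fatty acid synthesis 0 of 20 genes were below that level in the higher direction and 2 in the lower, Elovl5 (0.87 in labelled KO and 1.94 in CTRL, adjusted p = 0.269) and Pnpla3 (2.01 in labelled KO and 4.25 in CTRL, adjusted p = 0.538). In CTRL liver 2.19% of genes were called lower; Selenbp2 and Slc22a7 were among them at -4.06 and -2.81.

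**Figure D5:**
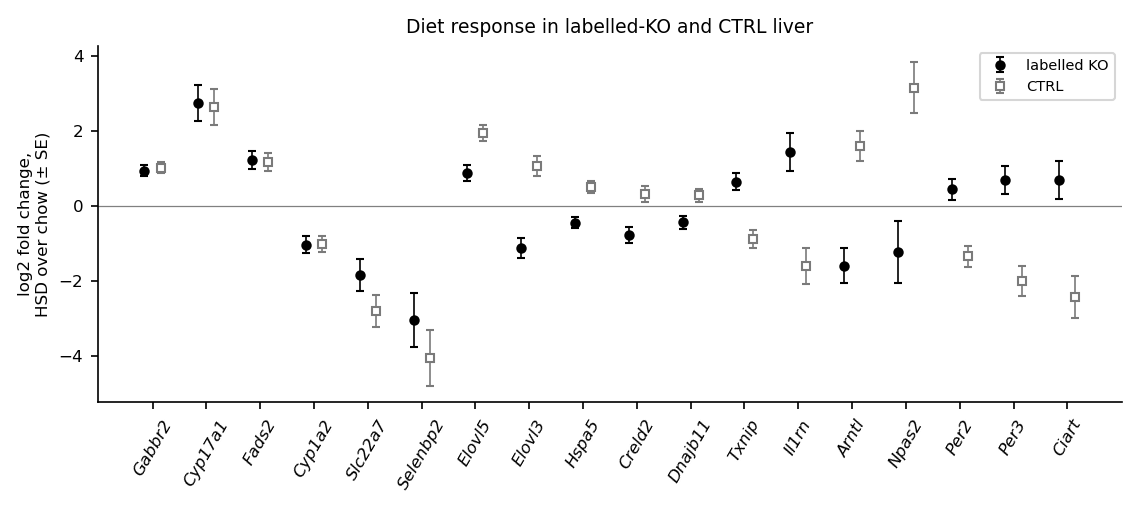
Log2 fold change of HSD over chow, with its standard error, for 18 genes in labelled-KO liver (filled circles) and CTRL liver (open squares), 4 libraries per diet in each. The responses of Gabbr2, Cyp17a1, Fads2 and Cyp1a2 nearly coincide, and those of Elovl3, Hspa5, Arntl and Per3 have opposite signs.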

How the data were processed

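RNA was sequenced from 64 libraries, of which the 16 liver libraries were used. Gene-level estimated counts and gene-level TPM values were deposited by the authors, who used kallisto and GRCm38 per the submitters' processing notes; version and annotation were not stated there. Rounded to integers, the estimated counts as deposited were fitted with edgeR 4.0.16 (R 4.3.3) over the 4 liver groups, with TMM factors, filterByExpr at a minimum count of 10, robust quasi-likelihood tests and Benjamini-Hochberg adjustment over 11259 of 19521 genes. Alternatives used DESeq2 1.42.0, limma 3.58.1 on voom and TPM values, other filters, scalings and covariates, and leave-outs. No library columns were identical, and replicate numbers follow accession order and pair nothing.

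Pklr was also compared as log2(TPM + 1) by an exact permutation test. The members and gene lists were chosen with earlier results of these data known. The families by symbol, the index, the emphasis on the fit without HSD replicate 1 and the omission of 3 libraries together were chosen after values were seen. Genes named as the top 10 in each direction have groups that do not overlap, the smallest p, and an average log2 CPM no lower than 1; the others are list members near the unadjusted threshold or singled out after their values were seen. Promoters are from RefSeq (GRCm38.p6) and gene coordinates from GENCODE on GRCm38. Results for a few genes, 1 of them among the top 10 lower, are not reported here.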

Additional observations from a re-analysis of the deposited data

Results flagged for a closer look

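Among 206 groups of 4 libraries (103 named genes by 2 diets), 15 had 1 library far from the other 3 by Dixon's criterion. Chance flags about 1 in 20 groups when genes are not chosen by their values. These genes were in part chosen by their values, so the count of flags is a description. Of the 15 flags, 9 were HSD replicate 1. It had low CPM for Fads2 (667.5, others 1685 to 1883), Fads1 (538.1, others 1003 to 1056) and Fabp5 (74.69, others 569.8 to 603.9). It had high CPM for Slc27a5 (839.5, others 696.8 to 713.0), Cyp1a2 (343.6, others 182.0 to 196.3), Ces1g (224.3, others 37.59 to 58.59) and Cth (468.1, others 170.8 to 191.3). It was also high for Lcn2 (23.05, others 1.61 to 3.46) and Slc22a30 (152.3, others 117.4 to 122.4).

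Chow replicate 1 was high for Dnajb11 (133.3, others 108.4 to 111.3). Chow replicate 2 was high for Apoc2 (192.2, others 142.9 to 150.5). Chow replicate 4 was low for Mlxipl (65.86, others 85.59 to 86.25) and Baat (298.5, others 321.9 to 325.0), and high for Enho (7.02, others 2.67 to 3.12) and Ier2 (12.25, others 5.04 to 5.64).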

How the results depend on the processing

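The count of genes called for HSD against chow was 1. It was 2 with no low-count filter, 137 by DESeq2, 58 by limma voom, 103 without HSD replicate 1 and chow replicates 1 and 2 together (chosen after seeing the data), and 0 by limma on TPM with either pseudocount, with only the 8 labelled-KO libraries or with the length trend removed. Leaving out 1 library gave 0 to 154, with 154 without HSD replicate 1 and 2 without chow replicate 2; the causes were not tested. For the difference from the CTRL response the count was 0, against 70 by DESeq2, 2 by limma voom and 0 to 5 with 1 library left out, the 5 without CTRL chow replicate 1. The Pklr difference lay between 0.79 and 1.08 with 1 library left out; without chow replicate 4 the exact permutation p was 0.0571. Of 2676 results for 103 named genes under alternatives, 2505 kept direction and side of the threshold, 15 lost a call (all Gabbr2), 151 gained one and 5 changed sign. Those were Pkm (-0.18 with the 3 libraries out), Cry1 (0.035 and 0.017 by limma on TPM), and, with the clock score as a covariate, Per3 (-0.024) and Ciart (-0.11). Per3 and Ciart are themselves part of that score. No paired analysis was possible because the liver groups share no replicate numbers in the labels. With 4 libraries per diet and a total of 6714622 to 7940378 counts, low genes such as Enho are the least precise.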
